A study of Bos taurus with 4 samples.

Results

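CEBPA, CEBPD, KLF6 and KLF9 are 4 transcription factors of fat cell differentiation, and their expression was followed through subcutaneous adipose tissue of Chinese Qinchuan cattle. A sequence file deposited with the counts describes each counted transcript cluster, and the 4 genes were found there by symbol or full name. Each of them had 1 named cluster, so the set holds 4 of the 36373 clusters counted and 4 of the 4925 gene symbols that could be assigned. The clusters were Bt.4332 for CEBPA, Bt.6406 for CEBPD, Bt.111439 for KLF6 and Bt.105464 for KLF9. Tissue came from fetuses of 200 to 250 days (library ATFB) and from adult cattle of 18 to 24 months, namely bulls (ATAB), heifers (ATAH) and steers (ATAS). These ages are those of the labels, and the study's methods give a single age for each stage in their place. Steers are castrated males, and the sex of the fetuses is not given in the sources used here. Material of 5 animals was pooled for each group and sequenced as 1 library, so no group had a replicate, and the spread between animals was not measured. Sodium pentobarbital is named as the anesthetic for surgery and no genetic modification is named for any group, and the sources describe how the adult animals were housed and fed but give no such detail for the dams.

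C/EBP proteins are transcription factors with a basic region that binds DNA and a leucine zipper that joins them in pairs. In cultured preadipocytes CEBPD is induced early, by glucocorticoids among other stimuli, and CEBPA follows later and maintains the expression of genes of the mature fat cell. Kruppel-like factors bind GC-rich DNA through 3 zinc fingers at their carboxyl end. KLF6 is known to repress DLK1, an inhibitor of fat cell differentiation, and KLF9 is known to activate PPARG and to respond to glucocorticoids and thyroid hormone.

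Coding stretches of the DNA-binding parts of CEBPA and of the Kruppel-like pair are shown because these parts define the families. The CEBPA sequence covers the basic region and the leucine zipper, 5′ to 3′, at bases 499 to 702 of its deposited cluster sequence. Capitals mark the 5 leucine codons of the zipper, which lie 7 codons apart.
CEBPA: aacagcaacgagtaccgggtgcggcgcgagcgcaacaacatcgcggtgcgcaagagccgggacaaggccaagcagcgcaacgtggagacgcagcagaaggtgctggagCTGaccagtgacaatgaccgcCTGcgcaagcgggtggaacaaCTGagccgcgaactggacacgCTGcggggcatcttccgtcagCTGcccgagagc

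A search with the whole cluster sequences returned no alignment between CEBPA and CEBPD, and the CEBPD cluster matched no other cluster.

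For KLF6 and KLF9 the stretches cover the 3 zinc fingers in 81 codons, bases 816 to 1058 of the KLF6 cluster and 781 to 1023 of the KLF9 cluster, 5′ to 3′. Capitals mark the 12 codons for the cysteines and histidines that hold the zinc ions.
KLF6: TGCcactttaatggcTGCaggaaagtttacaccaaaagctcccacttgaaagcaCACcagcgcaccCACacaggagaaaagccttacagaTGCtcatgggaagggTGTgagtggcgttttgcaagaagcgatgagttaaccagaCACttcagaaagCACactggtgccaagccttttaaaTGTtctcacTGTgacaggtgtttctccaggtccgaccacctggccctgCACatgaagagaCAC
KLF9: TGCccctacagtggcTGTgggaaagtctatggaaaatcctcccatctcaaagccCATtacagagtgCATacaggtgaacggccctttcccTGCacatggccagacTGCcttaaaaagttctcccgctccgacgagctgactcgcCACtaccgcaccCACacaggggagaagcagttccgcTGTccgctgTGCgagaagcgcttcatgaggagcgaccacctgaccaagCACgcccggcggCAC

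Here 141 of 243 bases were the same, and 49 of 81 codons stood for the same residue. The zinc finger stretches were thus the same at 58.0% of the bases. The KLF6 cluster also matched KLF7 at 84.2% identity over 253 bases, and the KLF9 cluster matched no other cluster. The cluster sequences were 2251 bases long for CEBPA, 1614 for CEBPD, 2406 for KLF6 and 1329 for KLF9. The coding region annotated on the CEBPA cluster was 202 codons long, and the 42 codons before its first codon held no stop codon in the same frame, so the annotated region need not be the whole coding region. Only reads that matched a single place were counted, so reads from bases that a cluster shares with another sequence may be lost or split. Such bases made up 46.2% of the CEBPA cluster and 30.3% of the KLF6 cluster, where unnamed expressed sequence tags on the opposite strand matched at 99.6% identity or more. The library preparation as described does not keep the strand of a read.

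The files gave whole read counts, the percentage of each cluster sequence covered, and RPKM, which is counted reads scaled to the cluster length in kilobases and to the library total. Totals ran from 15.3 M counted reads in ATFB to 16.1 M in ATAB. Fat cell markers were present in every library, with 11 of 12 marker genes having a cluster and summed levels of 1325 RPKM for ATFB against 9098, 9485 and 8497 RPKM for ATAB, ATAH and ATAS. Markers of fibroblasts and fat cell precursors (6 of 8) summed to 10612, 7790, 2309 and 3027 RPKM in the 4 libraries, fetal first and in the same order. Red cell markers (3 of 6) summed to 2391 RPKM in ATFB and to at most 1.54 RPKM in an adult library, and none of the 3 had a read in ATAS. Endothelial markers (6 of 7) summed to 547, 387, 557 and 721 RPKM in ATFB, ATAB, ATAH and ATAS, and leukocyte markers (8 of 8) to 126, 221, 211 and 328 RPKM. Skeletal muscle markers (4 of 8) ran from 30.0 to 62.9 RPKM and skin epithelium markers (3 of 6) from 2.09 to 9.02 RPKM. In pooled tissue, fewer cells of a type and less RNA per cell cannot be told apart.

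The levels of the 4 factors followed 3 kinds of profile across the libraries. CEBPA was low in the fetal library and high in all adult libraries, CEBPD was highest in the fetal library and lowest in the bull library, and KLF6 and KLF9 had their lowest level in the fetal library and their highest in the steer library. CEBPD was the most abundant of the 4 by RPKM in every library, and CEBPA the least abundant in ATFB and ATAS. Intervals given below are 95% intervals for counting error only.

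**Figure D1:**
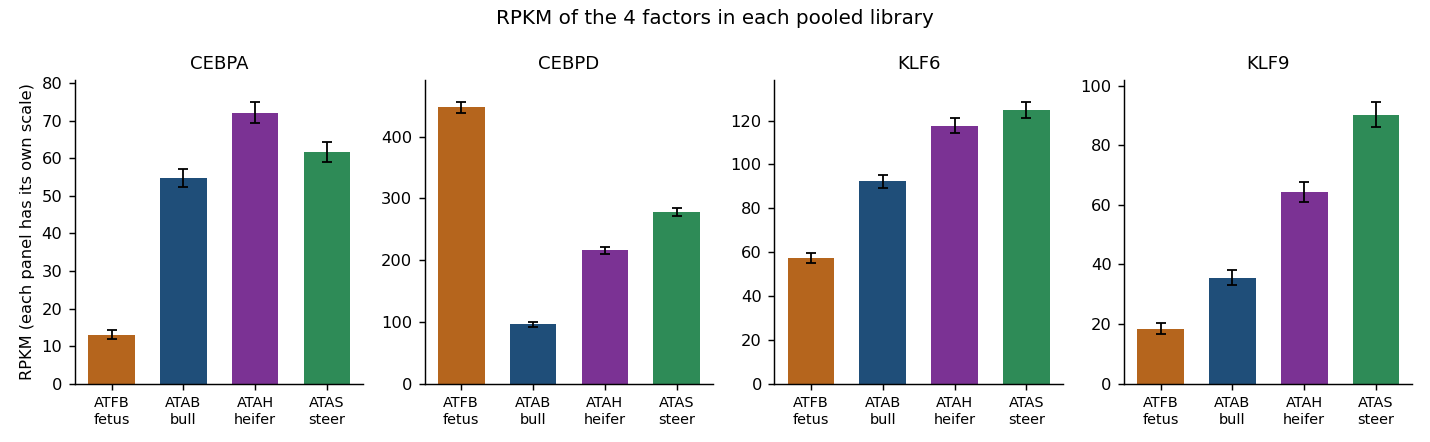
RPKM of CEBPA, CEBPD, KLF6 and KLF9 (vertical axis, a separate scale in each panel) in the 4 pooled libraries (horizontal axis). Bars are the deposited RPKM and error bars are 95% counting intervals of 1 library, not the spread between animals. CEBPA is lowest in ATFB at 13.001 RPKM, CEBPD is highest there at 447 RPKM, and KLF9 is highest in ATAS at 90.2 RPKM.

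CEBPA had 13.001 RPKM in ATFB (447 reads, interval 11.8 to 14.3), 54.7 RPKM in ATAB (1987 reads, 52.3 to 57.1), 72.1 RPKM in ATAH (2529 reads, 69.3 to 74.9) and 61.6 RPKM in ATAS (2156 reads, 59.0 to 64.2). Each adult level lay well above the fetal level, and the adult levels stood in the order heifer, steer, bull with intervals that did not overlap, although steer and bull changed places with TMM or size factors. Reads covered 78.4% of the CEBPA sequence in the fetal library and 83.3%, 86.5% and 68.3% in the bull, heifer and steer libraries, where the median over clusters with reads was between 69.2% and 72.1%. The steer library thus had the lowest coverage of CEBPA but not the lowest level. Among named genes CEBPA ranked 1090th of 4925 by RPKM in ATFB and 205th in ATAH.

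CEBPD had 447 RPKM in ATFB (11027 reads, 439 to 456), 96.4 RPKM in ATAB (2512 reads, 92.6 to 100.2), 216 RPKM in ATAH (5437 reads, 210.4 to 222) and 278 RPKM in ATAS (6977 reads, 271 to 284). All 4 levels differed beyond counting error, in the order fetus, steer, heifer, bull. CEBPD ranked 26th of the named genes in ATFB and 133rd in ATAB, and its coverage was between 98.6% and 98.8% in each library.

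KLF6 had 57.3 RPKM in ATFB (2106 reads, 54.9 to 59.8), 92.2 RPKM in ATAB (3584 reads, 89.2 to 95.3), 118 RPKM in ATAH (4414 reads, 114 to 121) and 125 RPKM in ATAS (4669 reads, 121 to 128). The fetal level was the lowest and the bull level the next, while the intervals of the heifer and steer libraries met at 121 RPKM. KLF9 had 18.3 RPKM in ATFB (372 reads, 16.5 to 20.3), 35.5 RPKM in ATAB (761 reads, 33.0 to 38.1), 64.2 RPKM in ATAH (1330 reads, 60.8 to 67.7) and 90.2 RPKM in ATAS (1865 reads, 86.2 to 94.4). KLF9 stood in the order fetus, bull, heifer, steer, each step larger than the counting error. Coverage was at least 94.1% for KLF6 and at least 96.1% for KLF9 in every library.

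The question of age was addressed by comparing the fetal library with each adult library. For 2 libraries, the split of a cluster's reads was set against the split of the library totals (exact binomial test, two-sided). Calls needed a false discovery rate (FDR) over all clusters of 0.001 or less and a 2-fold difference in RPKM, which is 1 on the log2 scale. With pooled libraries such a test speaks of the libraries compared, not of the conditions. In ATAB against ATFB 1 of the 4 genes was called higher and 1 lower, where 9.51% of all 34096 clusters tested were called higher and 13.1% lower. In ATAH against ATFB 3 of 4 were called higher and 1 lower, beside 13.9% and 9.83% of all clusters, and in ATAS against ATFB 3 of 4 were called higher and 0 lower, beside 15.5% and 10.5%. Since well counted clusters are called more often, the shares among clusters with at least 1000 reads in the pair are also given. They were 12.5% higher and 18.3% lower in ATAB, 17.5% and 15.2% in ATAH, and 20.7% and 14.2% in ATAS. The fetal library is shared by these comparisons, so they are not independent.

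CEBPA, the late activator, rose in all 3 comparisons with the fetal library. It was 4.20-fold higher in ATAB (log2 ratio 2.07, interval 1.92 to 2.22), 5.54-fold higher in ATAH (2.47, 2.33 to 2.62) and 4.74-fold higher in ATAS (2.24, 2.10 to 2.39). Among clusters with at least 1000 reads, 7.97%, 5.82% and 8.09% had a log2 ratio of larger size. Summed fat cell markers were higher in the same libraries, with 10, 10 and 8 of 11 markers called higher than in ATFB and 0, 0 and 1 (SLC2A4) lower, beside 9.51%, 13.9% and 15.5% of all clusters higher and 13.1%, 9.83% and 10.5% lower, and their part in the CEBPA result was not tested.

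CEBPD, the early factor, fell in ATAB and ATAH against ATFB. It was 4.64-fold lower in ATAB (log2 ratio -2.21, -2.28 to -2.15) and 2.07-fold lower in ATAH (-1.05, -1.10 to -1.003), the latter close to the threshold. In ATAS the log2 ratio was -0.69 (-0.73 to -0.64), which was not called because it was under the 2-fold limit. The summed fibroblast and precursor markers were also highest in ATFB, but were lowest in ATAH, where CEBPD was not, and their part in the CEBPD result was not tested.

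KLF6 had log2 ratios of 0.69 in ATAB (0.61 to 0.77), 1.04 in ATAH (0.96 to 1.11) and 1.12 in ATAS (1.05 to 1.20) against ATFB, and rose in the latter 2. These lie inside the usual range of well counted clusters, 31.0% and 30.4% of which had a ratio of larger size in ATAH and ATAS. With edgeR's TMM scaling KLF6 was called only in ATAS (log2 ratio 1.004), and with DESeq2 size factors (0.90 and 0.96) or ACTB reads (0.77 and 0.87) in neither library. KLF9 rose in ATAH by 1.81 (1.64 to 1.98) and in ATAS by 2.30 (2.14 to 2.46) on the log2 scale. In ATAB its log2 ratio of 0.95 (0.77 to 1.14) was not called, but became so at 1.13 with TMM factors and 1.10 with size factors.

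**Figure D2:**
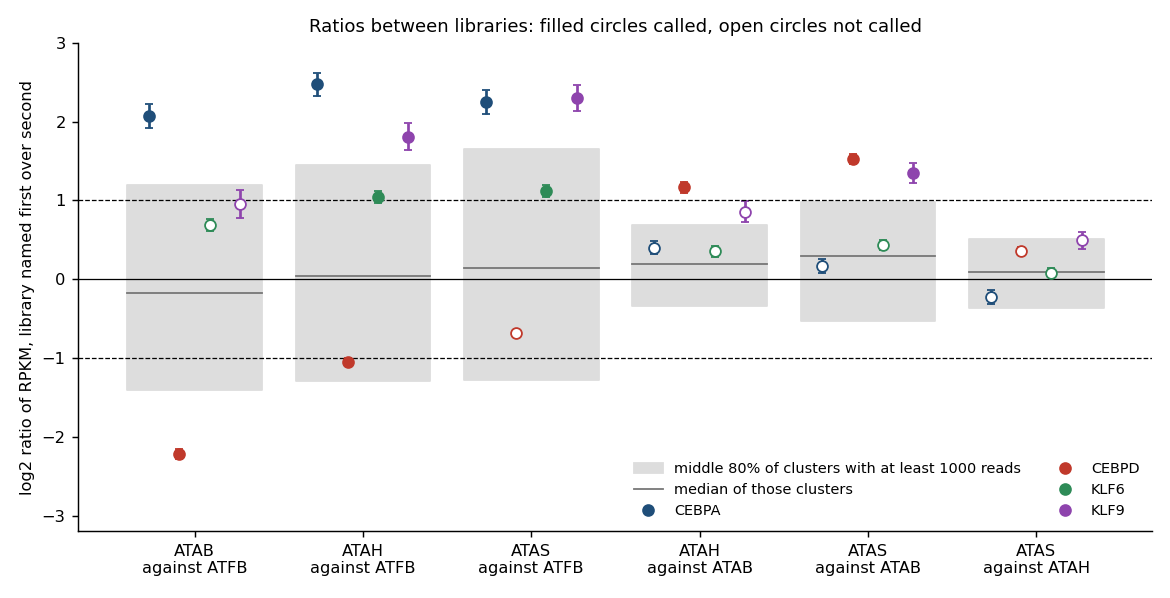
Log2 ratios of RPKM (vertical axis) of the 4 genes in the 6 pairs of libraries (horizontal axis), with 95% counting intervals. Filled circles are called, open circles are not, dashed lines mark the 2-fold limit, and the grey boxes hold the middle 80% of clusters with at least 1000 reads around their median. CEBPA lies above the box in all 3 comparisons with ATFB, and CEBPD lies below it in ATAB at -2.21 and above it in the 2 comparisons of ATAH and ATAS with ATAB.

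With the 3 adult libraries as a group, edgeR's quasi-likelihood test gave an adult over fetal log2 ratio of 2.24 for CEBPA (FDR 0.0121) and 1.72 for KLF9 (FDR 0.0474), both higher in the adult libraries. The ratios were -1.26 for CEBPD (FDR 0.102) and 0.92 for KLF6 (FDR 0.0810), which did not pass an FDR of 0.05. Over all clusters, 18.2% of 25584 passed, 9.83% higher and 8.40% lower in the adult libraries, so 2 of 4 genes passing is to be read beside that share. The spread in this test comes from adult libraries that differ in sex and castration, and the single fetal library is assumed to vary as they do. Without the heifer library the log2 ratios of CEBPA, CEBPD, KLF6 and KLF9 were 2.18, -1.31, 0.92 and 1.74. Without the bull library they were 2.23, -0.999, 0.94 and 1.93. Which of the 4 genes passed changed with the library left out, and so did the share of all clusters passing.

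The effects of sex and castration were addressed by comparing the adult libraries with each other. In ATAH against ATAB 1 of the 4 genes was called higher and 0 lower, beside 4.14% and 1.23% of all clusters. In ATAS against ATAB 2 of 4 were called higher and 0 lower, beside 6.86% and 1.87%, and in ATAS against ATAH 0 of 4 were called, beside 1.52% higher and 1.48% lower. Among clusters with at least 1000 reads the shares were 3.8% higher and 1.33% lower in ATAH against ATAB, 9.61% and 3.11% in ATAS against ATAB, and 1.59% and 1.52% in ATAS against ATAH. The bull library had lower values for most clusters on this scaling. The median log2 ratio of clusters with at least 1000 reads was 0.19 in ATAH and 0.30 in ATAS against ATAB, and of all called clusters 77.1% and 78.6% were higher than in ATAB, which became 48.8% and 49.2% with TMM factors. Those factors moved every log2 ratio to ATAB by -0.28 in ATAH and -0.29 in ATAS. In ATAB against ATFB the share of called clusters that were higher was 42.1%, 53.2% with TMM factors and 29.4% with ACTB reads as the scaling. With ACTB reads the share in ATAH and ATAS against ATFB was 42.7% and 46.0%, in place of 58.6% and 59.6%.

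CEBPD rose in both libraries against the bull library. It was 2.24-fold higher in ATAH (log2 ratio 1.16, 1.10 to 1.23) and 2.88-fold higher in ATAS (1.53, 1.46 to 1.59), and 3.57% and 4.84% of clusters with at least 1000 reads had a ratio of larger size. Under TMM factors the ratio in ATAH was 0.89 and was no longer called, while that in ATAS was 1.23 and was. KLF9 rose in ATAS against ATAB, 2.54-fold (1.35, 1.22 to 1.47), and had a log2 ratio of 0.86 (0.73 to 0.99) in ATAH, which was not called. CEBPA differed little between the adult libraries. Its log2 ratio was 0.40 (0.31 to 0.48) in ATAH and 0.17 (0.08 to 0.26) in ATAS against ATAB, and the latter turned to -0.12 with TMM factors and -0.13 with size factors. KLF6 had log2 ratios of 0.35 and 0.44 in the same comparisons, and 43.4% and 51.1% of well counted clusters had a ratio of larger size.

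Between ATAS and ATAH none of the 4 genes was called by the binomial test with the 2-fold limit. The log2 ratios of ATAS over ATAH were -0.23 (-0.31 to -0.14) for CEBPA, 0.36 (0.31 to 0.41) for CEBPD, 0.08 (0.02 to 0.14) for KLF6 and 0.49 (0.39 to 0.59) for KLF9. Each interval excludes 0, so these are differences between the libraries beyond counting error that are smaller than 2-fold. The median log2 ratio of clusters with at least 1000 reads was 0.095 in this pair, about that of KLF6. Of these clusters 79.1% had a ratio of larger size than KLF6, and 17.2% one of larger size than KLF9.

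The balance between the members of each pair was compared within a library, where the library total has no influence. CEBPD exceeded CEBPA 34.4-fold in ATFB (31.3 to 37.9), 1.76-fold in ATAB (1.66 to 1.87), 2.998-fold in ATAH (2.86 to 3.14) and 4.51-fold in ATAS (4.30 to 4.74). CEBPA therefore made up 2.82% of the summed RPKM of both genes in ATFB and 36.2% in ATAB. The sum itself was 460 RPKM for the fetal library and 151, 288 and 339 RPKM for the bull, heifer and steer libraries. KLF6 exceeded KLF9 3.13-fold in ATFB (2.80 to 3.501), 2.60-fold in ATAB (2.40 to 2.82), 1.83-fold in ATAH (1.72 to 1.95) and 1.38-fold in ATAS (1.31 to 1.46). The ratios of the fetal and bull libraries overlapped in their intervals, and the heifer and steer libraries each stood apart from the rest.

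**Figure D3:**
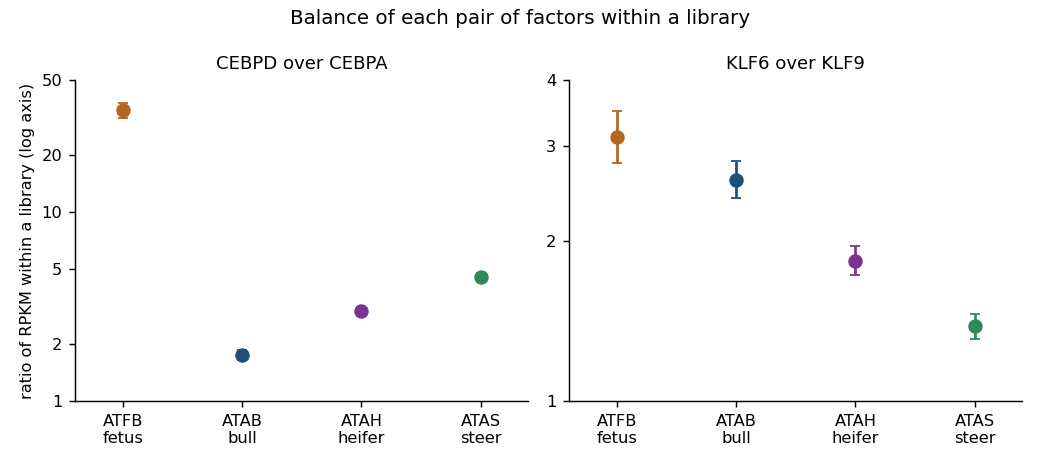
Ratio of RPKM within each library (vertical log axes) of CEBPD over CEBPA on the left and KLF6 over KLF9 on the right, with 95% counting intervals. The CEBPD to CEBPA ratio is 34.4 in ATFB and between 1.76 and 4.51 in the adult libraries, and the KLF6 to KLF9 ratio goes from 3.13 in ATFB to 1.38 in ATAS.

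CEBPD made up 89.8%, 55.3%, 66.8% and 73.9% of the summed RPKM of the C/EBP-named genes in ATFB, ATAB, ATAH and ATAS, and CEBPA 2.61%, 31.4%, 22.3% and 16.4%. Of the summed RPKM of the Kruppel-like factors, KLF6 made up 16.8%, 33.4%, 27.004% and 24.6% in the same order, highest in the bull library, and KLF9 5.38%, 12.8%, 14.7% and 17.8%, highest in the steer library. Of the other C/EBP genes, 3 of 5 had a cluster. CEBPZ, a CCAAT-binding protein that shares the name but not the leucine zipper, had 29.2, 18.9, 27.8 and 29.3 RPKM in ATFB, ATAB, ATAH and ATAS. CEBPG, which pairs with other leucine zipper proteins, had 8.14, 3.78, 7.37 and 6.77 RPKM and was called lower in ATAB than in ATFB (log2 ratio -1.10), a call that was lost with TMM or size factors. CEBPE, a factor of granulocytes, had at most 0.439 RPKM. CEBPB and DDIT3 were not analysed here.

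Among the Kruppel-like factors KLF6 and KLF9 were the second and the fifth of 13 by RPKM in ATFB and the first and the third in ATAS. Of the other members, 11 of 16 had a cluster, and the counts against ATFB were 0 higher and 3 lower in ATAB (2 lower with TMM factors), 2 higher and 1 lower in ATAH, and 3 higher and 1 lower in ATAS. The shares over all clusters were 9.51% higher and 13.1% lower in ATAB, 13.9% and 9.83% in ATAH, and 15.5% and 10.5% in ATAS. Against ATAB, 2 were higher in ATAH and 5 in ATAS, with 0 lower, and with TMM or size factors 1 and 4 were, where 4.14% and 6.86% of all clusters were higher on library totals. The median log2 ratio of the 11 against ATFB was -0.67 for the bull, 0.27 for the heifer and 0.83 for the steer library, where it was -0.15, 0.11 and 0.10 over all clusters tested. Against ATAB it was 0.81 in ATAH and 1.28 in ATAS, where it was 0.29 and 0.33.

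KLF4, which acts early in preadipocytes, had 132, 66.2, 118 and 112 RPKM in ATFB, ATAB, ATAH and ATAS, and was lower in ATAB than in ATFB by a ratio just past the limit (log2 ratio -1.0002), which TMM or size factors brought under it. KLF10, a target of TGF-beta, had 37.6, 22.8, 40.0 and 61.4 RPKM, and was called only in ATAS against ATAB (1.43). KLF11 had 11.2, 14.2, 29.3 and 38.8 RPKM, the same order of libraries as KLF6 and KLF9, and rose in ATAH (1.38) and ATAS (1.79) against ATFB. KLF13 had 54.5 RPKM in ATFB and 18.1, 23.5 and 17.1 RPKM in the adult libraries, and fell in all 3 of them against ATFB (-1.59, -1.21 and -1.67). KLF5 and KLF7 are named after their values were seen. KLF5, which activates PPARG, had 4.30, 1.002, 2.77 and 7.65 RPKM and rose by 2.93 in ATAS against ATAB, and KLF7 had 3.19, 5.33, 8.32 and 14.3 RPKM and rose by 2.16 in ATAS against ATFB.

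**Figure D4:**
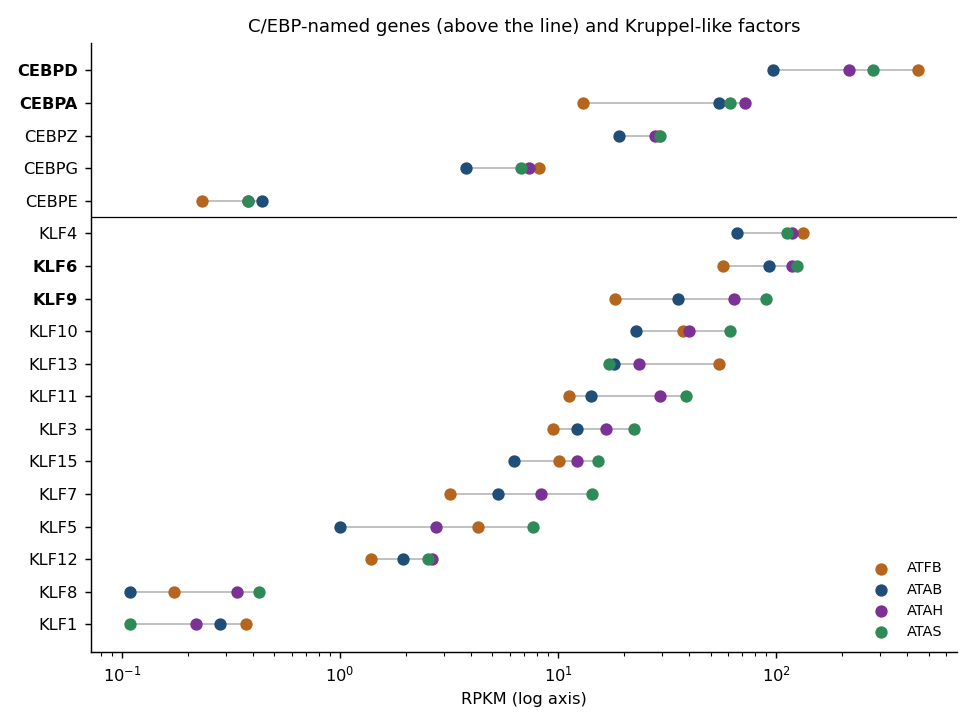
RPKM (horizontal log axis) of the C/EBP-named genes, above the line, and of the Kruppel-like factors, below it, in the 4 libraries (colours). The 4 genes of interest are in bold. CEBPD spans 96.4 to 447 RPKM with the fetal library highest, whereas CEBPA, KLF6 and KLF9 have the fetal library lowest.

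The genes that C/EBP factors and PPARG are known to bind were called higher in the adult libraries for the most part. Of 12 such genes with a cluster, 11, 11 and 9 were called higher than in ATFB in the bull, heifer and steer library, beside 9.51%, 13.9% and 15.5% of all clusters. The medians over the 12 were 2.98, 3.30 and 2.57 on the log2 scale, where they were -0.15, 0.11 and 0.10 over all clusters tested. Of the 12, 9 are also among the 11 fat cell markers given above, which were higher in the same libraries, so both lists count largely the same genes and targets cannot be told apart from fat cell content. SCD, a desaturase of fatty acids, had 177 RPKM in ATFB and 5557, 5493 and 2544 RPKM in the adult libraries, and ADIPOQ, a hormone of fat cells, had 261, 982, 1150.1 and 1498 RPKM. DGAT2 (251, 3224, 2367 and 1296 RPKM), an enzyme of triglyceride synthesis, and CD36 (181, 926, 1097 and 1111 RPKM), a fatty acid transporter, were also higher in all adult libraries. SLC2A4, the insulin-dependent glucose transporter, was lower in ATAS than in ATFB (log2 ratio -1.09). In ATAS against ATAB, 5 of the 12 fell and 1, LIPE, a lipase of stored fat, rose by 1.02, beside 1.87% of all clusters lower and 6.86% higher. With TMM factors these counts were 7 and 0.

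Of the other factors that promote fat cell differentiation, 12 of 16 had a cluster, and 1, 3 and 3 were higher in ATAB, ATAH and ATAS than in ATFB, with 0 lower, beside 9.51%, 13.9% and 15.5% of all clusters. With TMM or size factors 3 were higher in ATAB. SREBF1, an activator of lipid synthesis, had 39.1, 61.0, 87.5 and 60.8 RPKM and rose in ATAH (1.16, not called with ACTB reads as the scaling), whereas NR1H3, NR3C1 and EBF1, the other factors with the most reads, were not called in any pair. NR3C1, the glucocorticoid receptor, had 19.4, 22.8, 26.4 and 26.6 RPKM. PPARG and RXRA were not analysed here. Of factors that hold back differentiation, 12 of 15 had a cluster, and 4 fell in each adult library against ATFB while 2, 3 and 4 rose. With ACTB reads as the scaling, 6, 5 and 5 fell and 1, 3 and 3 rose. Of all clusters, 13.1%, 9.83% and 10.5% fell and 9.51%, 13.9% and 15.5% rose. DLK1, which KLF6 is known to repress, had 566 RPKM in ATFB, 0 reads in ATAB, 1.91 RPKM in ATAH and 0.911 RPKM in ATAS. KLF6 was between 1.61 and 2.18 times its fetal level in the adult libraries and was not called in ATAB. The part of KLF6 in the DLK1 result was not tested. On library totals TCF7L2, NR2F2 and HES1 were not called in any pair, and GATA3 (1.32) and WNT5A (1.57) were higher in ATAB than in ATFB. NR2F2, at -0.92 in ATAH against ATFB, passed the limit there with TMM factors, size factors or ACTB reads. With ACTB reads NR2F2 and TCF7L2, at -0.89 and -0.91 on library totals, were also called lower in ATAB than in ATFB.

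Genes induced by glucocorticoids were examined because CEBPD and KLF9 are known to respond to these hormones. Of 12 with a cluster, 2 were called higher and 2 lower in ATAB than in ATFB, 5 and 0 in ATAH, and 9 and 0 in ATAS (6 and 0 with ACTB reads). Of all clusters, 9.51% and 13.1%, 13.9% and 9.83%, and 15.5% and 10.5% were. Against ATAB, 6 were higher in ATAH and 10 in ATAS, with 0 lower, where 4.14% and 6.86% of all clusters were higher. The median log2 ratio was 0.95 and 1.24, where it was 0.29 and 0.33 over all clusters tested. These counts moved with the scaling, to 4 and 5 with TMM factors and to 3 and 5 with size factors, and to 4 and 9 with ACTB reads. PDK4, a kinase that limits glucose oxidation, had 46.2, 238, 477 and 765 RPKM in ATFB, ATAB, ATAH and ATAS, and DUSP1, a phosphatase of MAP kinases, had 156, 230, 463 and 560 RPKM. GLUL, which makes glutamine, had 256, 291, 481 and 664 RPKM. FKBP5, which binds the glucocorticoid receptor complex, had 93.5, 54.8, 101 and 86.8 RPKM and was not called in any pair on library totals. Its log2 ratio of -0.77 in ATAB against ATFB passed the limit with ACTB reads, where 3 genes of the list were lower.

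Immediate-early genes, which many stimuli induce within minutes, differed between the adult libraries in the same direction, with larger medians. Of 14 with a cluster, 10 were higher in ATAH and 12 in ATAS than in ATAB, with 0 lower and median log2 ratios of 1.52 and 1.88, beside 4.14% and 6.86% of all clusters and medians of 0.29 and 0.33. Against ATFB 4, 11 and 11 were higher in the bull, heifer and steer library, beside 9.51%, 13.9% and 15.5% of all clusters. ZFP36, which speeds the decay of mRNA, had 231, 201, 564 and 864 RPKM, EGR1, a zinc finger factor, had 16.7, 62.2, 249 and 359 RPKM, and FOS, a partner of JUN proteins, had 26.2, 115, 287 and 363 RPKM. NR4A1, an orphan nuclear receptor, had 81.0, 53.3, 185 and 299 RPKM. IER3 was called lower in ATAB than in ATFB (-1.17), but not with TMM factors. Summed over the 14 genes, the level was 906 RPKM for the fetal library and 1007, 2661 and 3623 RPKM for the bull, heifer and steer libraries. Among adult libraries this sum, CEBPD, KLF6 and KLF9 all stood in the order bull, heifer, steer. The order was not particular to them. Summed endothelial markers (387, 557 and 721 RPKM) and glucocorticoid-induced genes (1054, 1983 and 2659 RPKM) had it too. On library totals most called clusters were higher than in ATAB. The part of any of these lists in the differences of the 4 factors was not tested.

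**Figure D5:**
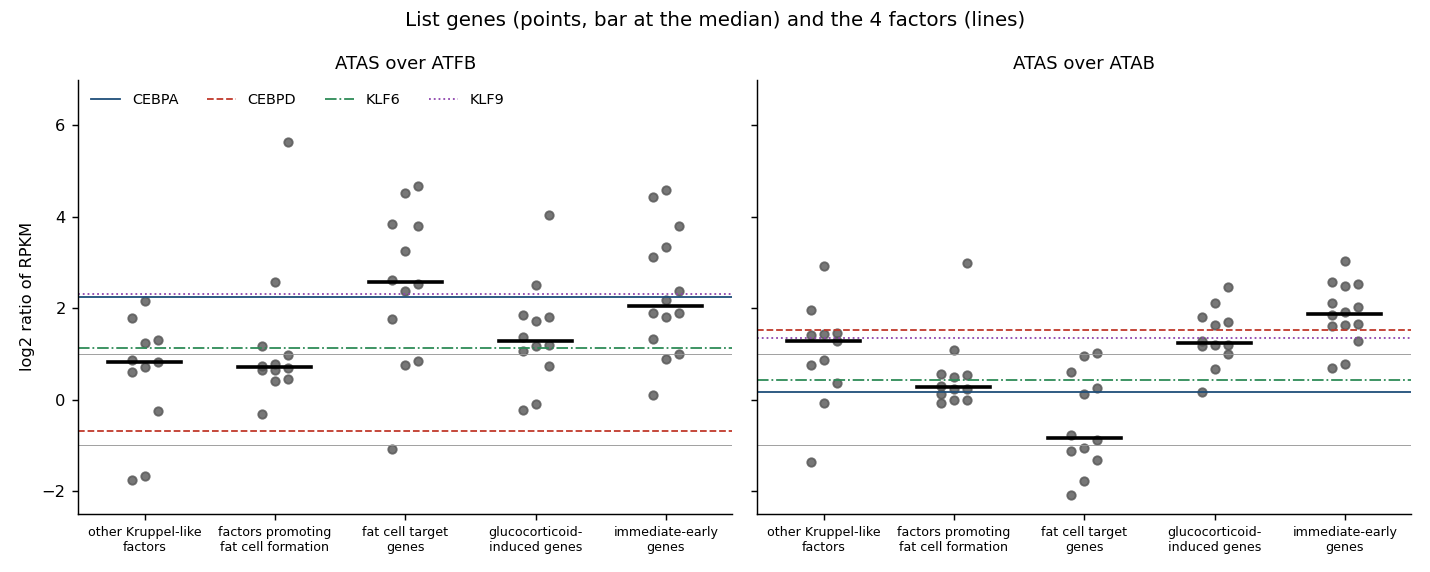
Log2 ratios of RPKM (vertical axis) of the genes of 5 lists (grey points, bar at the median) in ATAS over ATFB on the left and ATAS over ATAB on the right, with coloured lines for the 4 factors and thin lines at the 2-fold limit. In ATAS over ATAB the medians are 1.24 for glucocorticoid-induced genes and 1.88 for immediate-early genes, with CEBPD at 1.53 and KLF9 at 1.35, and -0.84 for the fat cell target genes.

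Genes of thyroid hormone action (7 of 7 with a cluster) gave 4 higher calls in each adult library against ATFB, beside 9.51%, 13.9% and 15.5% of all clusters. DIO2, a deiodinase of the list named after its values were seen, had at most 2 reads in a library. THRSP, a lipogenic protein, had 31.3, 3188, 1456 and 597 RPKM in ATFB, ATAB, ATAH and ATAS, ME1, the malic enzyme, 2.67, 68.2, 43.7 and 21.4 RPKM, and BCL6, a repressor, 9.56, 24.6, 31.4 and 24.6 RPKM. THRA, a thyroid hormone receptor, was at 17.6, 16.4, 14.9 and 17.7 RPKM and was not called in any pair. THRB, the other receptor and named after its values were seen, had 1.06, 13.9, 19.98 and 21.6 RPKM and rose in all adult libraries against ATFB (3.71, 4.24 and 4.35), and HR, a corepressor, was called lower in ATAB and ATAS than in ATFB. None of the 7 was called higher in ATAS than in ATAB by the binomial test and 2 were lower, beside 6.86% and 1.87% of all clusters. The part of thyroid hormone in the KLF9 result was not tested. Of 7 genes of the interleukin-6 and STAT3 response (7 of 11 with a cluster), 2, 4 and 4 were higher in ATAB, ATAH and ATAS than in ATFB, beside the same shares of all clusters, and 3 in ATAB with TMM or size factors. LBP and HP, acute-phase proteins, were lower in ATAS than in ATAB (-1.49 and -1.84), and STAT3 was not called in any pair. BCL3, a cofactor of NF-kappaB, exceeded its bull level in the heifer (1.45) and steer (1.54) libraries, and PIM1, a kinase, was called lower in ATAB than in ATFB (-1.01) on library totals but not with TMM or size factors.

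The named genes nearest to each factor in profile were found over the 4 libraries, as a description with no test, by the distance between centred log2 values of RPKM plus 0.1, among 3368 named clusters with at least 200 reads. Nearest to CEBPA was NUAK1, a protein kinase, at a distance of 0.036 (0.869, 4.06, 5.39 and 4.61 RPKM), followed by STAT5B at 0.14. CEBPD had no gene as close, with CPNE5, CCDC138 and DHX58 at 0.33, 0.38 and 0.38, where the median distance over all genes was 1.80. KLF6 was nearest to NRBP2 (0.041), MCM3AP and MTMR6, and KLF9 to ELL (0.095), VWA5A and DUSP2. Among the 4 factors KLF6 and KLF9 were the closest pair at 0.905, but KLF9 was only the 1691st of 3368 genes by distance from KLF6, where the median distance was 0.903, and KLF6 was the 702nd from KLF9, where the median was 1.46. CEBPA and KLF9 followed at 0.97, and CEBPA and CEBPD were the farthest apart at 3.24.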

How the data were processed

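RNA of subcutaneous adipose tissue, pooled from 5 animals, was sequenced as 1 poly(A) library per group on an Illumina platform. The authors removed adaptors and low-quality reads, aligned with SOAPaligner (first without mismatches, then with fewer than 3), and deposited for each UniGene cluster the count of uniquely matched reads, the RPKM computed from it, and the percent of its sequence covered. The methods name bosTau7 as the genome, whereas the rows are cluster sequences, and no chromosome positions were used. The submitters' processing notes name CASAVA.

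Symbols came from RefSeq accessions and names in the deposited sequence headers, with the most-read cluster taken for each symbol (5678 clusters named, holding 31.9% of the reads). Clusters that name no gene stayed in library totals and tests. Clopper-Pearson 95% intervals of read shares gave the intervals of ratios and exact Poisson limits those of single values. Without molecular identifiers a read need not be a separate molecule, and intervals cover counting error only. A count of 0 allows up to 3 reads. The comparison of the fetal library with the 3 adult libraries, none of them a replicate of another, used edgeR 4.0.16 in R 4.3.3 (filterByExpr, TMM factors, quasi-likelihood test, Benjamini-Hochberg adjustment over all clusters), and DESeq2 1.42.0 was an alternative. Pairs of libraries were tested with scipy 1.17.1 and cluster sequences were compared with BLAST 2.17.0+. Both tests were also run on simulated counts. Those held counting error alone for the binomial test, and less spread than was estimated from these libraries for the quasi-likelihood test. They do not show how often either test errs on these libraries.

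Genes named in the text were the 4 members, the 3 nearest profiles of each, and, for each list, up to 4 genes with the most reads plus those called against most of the list. A nearest profile and a sequence are not reported here. The members and lists were chosen with earlier results of these data known. Alternatives were other scalings, a minimum of 20 reads, added clusters, an assumed coefficient of variation of 0.4, other stage tests and leaving out each adult library.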

Additional observations from a re-analysis of the deposited data

Results flagged for a closer look

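Reads were found on 4 unnamed clusters that match the sequence of CEBPA or KLF6 and that were not counted towards either gene above. Bt.101178, which matched bases 1294 to 2140 of the CEBPA cluster at 99.9% identity on the opposite strand, had 195 reads over the 4 libraries (56, 18, 54 and 67 in ATFB, ATAB, ATAH and ATAS). Bt.70681, which matched CEBPA at 99.7% over 675 bases and at 100% over 194 others on the opposite strand, had 286 reads (26, 57, 116 and 87). Bt.4606, which matched KLF6 at 99.6% over 729 bases on the opposite strand, had 8 reads (0, 2, 2 and 4). Bt.64509 matched the end of the annotated coding region of CEBPA at only 79.0% over 205 bases and had 2034 reads, which are 13.01, 18.8, 29.4 and 37.1 RPKM in ATFB, ATAB, ATAH and ATAS, an order of the adult libraries that CEBPA did not have. Its gene is not given in the sources used here.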

How the results depend on the processing

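No paired analysis was possible because each group had 1 library. Over 24 log2 ratios of the 4 genes and 7 alternatives, 19 of 168 recomputed values lost a call, 2 gained one and 2 changed sign. The total of 168 overstates how much could change. Each gene had 1 named cluster and far more than 20 reads. Adding all clusters that name a gene, or asking for 20 reads, therefore left all 24 ratios as they were. The assumed coefficient of variation kept the ratios themselves, so no sign could change, and it took 12 of the 19 lost calls. The sign changes were CEBPA in ATAS against ATAB, at -0.12 with TMM factors and -0.13 with size factors. With either scaling 2 of the 4 genes were called higher in ATAB than in ATFB, and 0 in ATAH than in ATAB. Of all 34096 clusters tested, 3907 with TMM factors and 3762 with size factors were higher in ATAB than in ATFB. Of 33887 clusters, 693 and 679 were higher in ATAH than in ATAB. An exact test that assumes a coefficient of variation of 0.4 called 0 of the 4 in every pair, and 184, 229, 278, 13, 5 and 12 clusters, against 7704, 8209, 8972, 1819, 2942 and 1021 (ATAB, ATAH and ATAS against ATFB, ATAH and ATAS against ATAB, ATAS against ATAH). That test adds an assumed spread between animals that the libraries cannot measure. Adding the near-identical unnamed clusters, a choice made after seeing the data, changed no call of the 4 genes, and the CEBPA ratios to ATFB became 1.88, 2.32 and 2.10.

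In the stage test, DESeq2's Wald test gave log2 ratios of 2.21, -1.29, 0.89 and 1.69 for CEBPA, CEBPD, KLF6 and KLF9. With library totals only they were 2.27, -1.18, 0.96 and 1.79, and without the steer library 2.30, -1.54, 0.89 and 1.44. Of the 4 genes CEBPA alone passed in every setting. Which of the others passed changed with the test, the scaling and the adult library left out. The number of all clusters passing changed with these settings too. The cause of these shifts was not tested. With a pseudocount of 1 RPKM, 0, 1, 1 and 2 of the 3 nearest genes of CEBPA, CEBPD, KLF6 and KLF9 were the same, and with a minimum of 50 reads 2, 1, 3 and 3. Depth limits KLF9 in ATFB most, with 372 reads.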
